A study of Mus musculus with 12 samples.

Results

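The genes described here are those of the mouse major histocompatibility complex (MHC, called H2 in the mouse) and of the machinery that loads its molecules with peptides. All array probes whose gene name begins with H2- were taken, together with those for B2m, Cd74, Ciita, Tap1, Tap2, Tapbp, Psmb8, Psmb9, Psmb10 and Nlrc5. This gave 60 probes for 50 genes, out of 55681 gene probes, or 79 of 59305 spots with gene probes. Of the 50 genes, 36 belong to the class I side, 12 to the class II side, and 2, H2-Ke2 and H2-Ke6, to neither. The probes of these 2 genes lie on chromosome 17 on either side of H2-K1, from positions 34076578 and 34162982 (build mm9). H2-Ke2 carries the current symbol Pfdn6 and encodes a prefoldin subunit, a chaperone component, and so belongs to neither family.

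RNA came from the descending aorta of male C57BL/6 mice, a wild-type inbred strain, aged either 6 months or 20 months, with 6 animals per age and no treatment beyond standard chow and water. Each mouse gave 1 RNA preparation from the whole vessel, flushed and freed of surrounding fat by dissection, and each preparation was hybridised to 1 Agilent 1-colour array. The design asks which transcripts differ between adult and old aortas. In bulk tissue such as this, fewer cells of a type and less RNA per cell cannot be told apart.

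Class I molecules consist of a heavy chain and the light chain beta-2 microglobulin, stand on nearly every nucleated cell, and present peptides made in the cytosol. The immunoproteasome cuts these peptides, the TAP transporter carries them into the endoplasmic reticulum, tapasin helps to load them, and NLRC5 activates transcription of the genes. Class II molecules consist of an alpha and a beta chain and present peptides from endosomes. They are made mainly by macrophages, dendritic cells and B cells, and by other cells exposed to interferon gamma. The invariant chain CD74 guards their groove, DM exchanges the peptide, DO restrains DM, and CIITA is the master activator of their transcription. In the artery wall, macrophages and dendritic cells of the outer coat are the usual carriers of class II.

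The control sequences of these genes show what the classes share and where they differ. The RefSeq promoter table of build GRCm38.p6, which gives 250 bases before and 50 after each start, held 34 of the 50 genes. The 4 class I stretches that follow, all upstream of the start, are shown because 3 of them hold both, and 1 only the second, of an enhancer A core (letters GGGATTCCC, bound by NF-kappa B and related factors) and a core of the interferon response element (letters TTTCACTTC). Capitals mark these cores, and each sequence runs 5′ to 3′ in the direction of the gene.
H2-K1: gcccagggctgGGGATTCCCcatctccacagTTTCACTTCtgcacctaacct
H2-D1: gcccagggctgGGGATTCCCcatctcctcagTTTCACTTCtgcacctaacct
H2-Q7: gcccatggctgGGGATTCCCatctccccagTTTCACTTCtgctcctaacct
H2-Q10: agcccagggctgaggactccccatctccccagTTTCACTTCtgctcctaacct

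They lie at chr17:34000417-34000468 (minus strand) for H2-K1, chr17:35262913-35262964 (plus strand) for H2-D1, chr17:35439012-35439062 (plus strand) for H2-Q7 and chr17:35469902-35469954 (plus strand) for H2-Q10. Both cores were present in H2-K1, H2-D1 and H2-Q7, whereas the H2-Q10 stretch held the interferon response core without the enhancer A letters. Searched on both strands, enhancer A letters occurred in 4 of the 19 class I heavy chain genes with a promoter in the table and in 0 of the 8 class II genes, against 0.353% of all 32851 promoters. The interferon response letters occurred in 6 of 19 and in 0 of 8, against 0.505% of all promoters.

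Class II promoters are known for an X box and a Y box at close spacing, a module that class I promoters have as well. The stretches of a classical alpha chain, a classical beta chain, a DM chain and a DO chain are shown, with capitals for the X box core CTAGNAAC and for the Y box core GATTGG, which reads CCAATC on the opposite strand. The Y box is a site of NF-Y and the X box one of the RFX complex.
H2-Aa: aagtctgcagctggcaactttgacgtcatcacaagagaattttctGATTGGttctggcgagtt
H2-Eb1: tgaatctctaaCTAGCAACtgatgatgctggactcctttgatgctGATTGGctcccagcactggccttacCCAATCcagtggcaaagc
H2-DMb1: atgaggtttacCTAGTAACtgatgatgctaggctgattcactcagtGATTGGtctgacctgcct
H2-Ob: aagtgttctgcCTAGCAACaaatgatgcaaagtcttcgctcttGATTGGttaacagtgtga

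These stretches lie at chr17:34287855-34287917 (minus strand) for H2-Aa, chr17:34305762-34305849 (plus strand) for H2-Eb1, chr17:34153083-34153146 (plus strand) for H2-DMb1 and chr17:34238804-34238864 (plus strand) for H2-Ob. The X box letters occurred in 4 of the 8 class II genes, in 1 of the 19 class I heavy chain genes (H2-M2) and in 3.62% of all promoters. Within the printed stretches they are present in H2-Eb1, H2-DMb1 and H2-Ob, while the H2-Aa stretch holds the Y core alone. The Y core is a short and common word, found in 8 of 8 class II genes, 13 of 19 class I heavy chain genes and 16.1% of all promoters. No marked motif overlaps another in the printed stretches. The motifs were chosen with the sequences in view, a match of letters is a description and not a measured binding site, and the promoters of near-identical genes share sequence and are not independent.

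**Figure D1:**
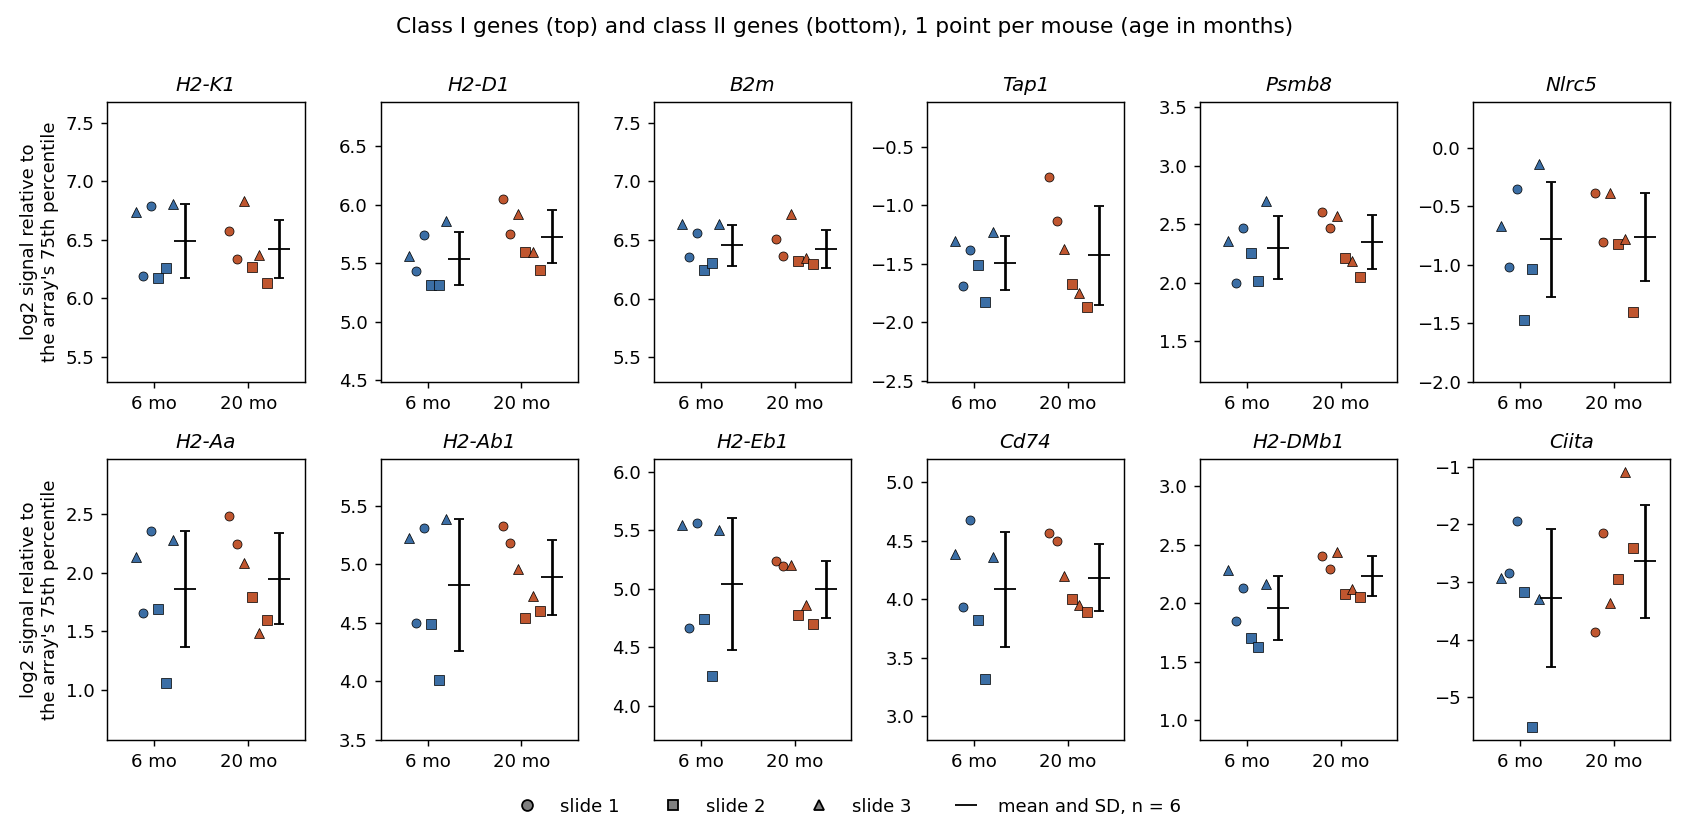
Signal of 6 class I genes (top) and 6 class II genes (bottom) in each mouse, as log2 signal relative to the array's 75th percentile, with 1 point per mouse, symbols for the 3 slides and the mean and SD at each age (n = 6). The ages overlap in all 12 panels, and the lowest point of H2-Aa, H2-Ab1, H2-Eb1, Cd74 and Ciita is the same mouse, 6 months replicate 5.

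Entry to the comparison of ages required a signal well above background, by the scanner's own test, on 6 or more of the 12 arrays. This held for 38 of the 60 probes and 34 of the 50 genes, 24 on the class I side, 8 on the class II side and both H2-Ke genes. On single arrays 36 to 42 of the 60 probes stood well above background. Of the probes that did not enter, 16 stood above background on no array and 6 on too few. Genes that passed by being detected are not all members, and counts below refer to the 34.

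None of the 34 genes was called changed between 6 and 20 months. The ages were compared with limma over all 16841 genes tested, at a Benjamini-Hochberg adjusted p under 0.05, and 0 of 34 member genes passed against 53 of all genes (0.315%). Of the member probes tested one by one, 0 of 38 passed, against 0.257% of all probes. At an unadjusted p under 0.05 there was 1 member gene, H2-M9, against 7.99% of all genes, and 0 members had ages that did not overlap, against 0.813% of all genes. With a background this low, 0 calls among 34 genes does not set the members apart from other genes.

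The size of change that the data leave possible differed between members. The 95% interval of the change (20 minus 6 months) lay within 1.5-fold in either direction for 29 of the 34 genes and within 2-fold for 32. The intervals of Ciita and H2-Q10 reached beyond 2-fold, and those of H2-Aa, H2-DMa and H2-M9 beyond 1.5-fold. For the light chain B2m, the interval was -0.25 to 0.18 on the log2 scale.

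**Figure D2:**
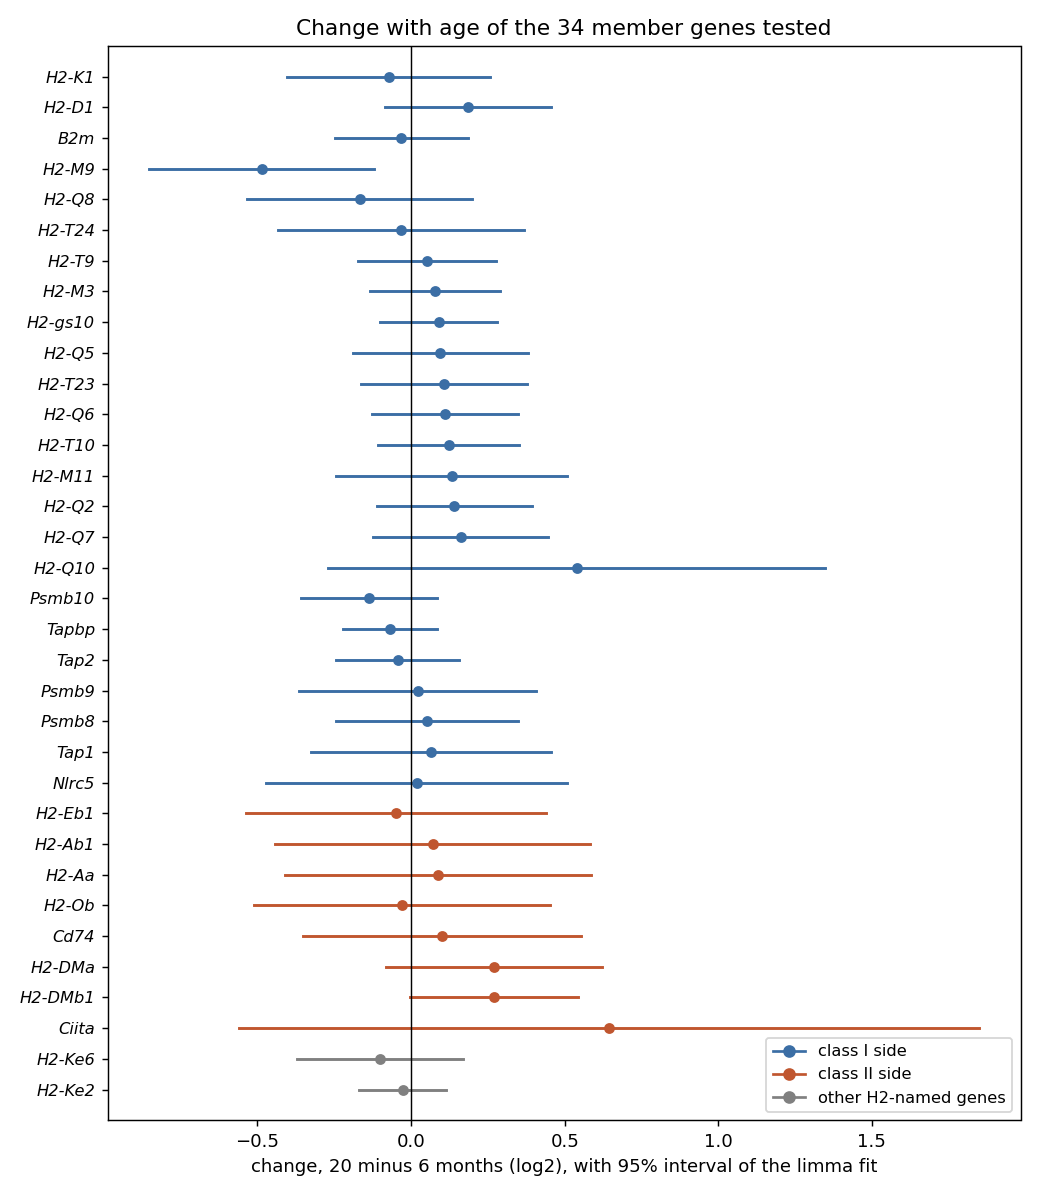
Change between ages of the 34 member genes tested, 20 minus 6 months on the log2 scale, with the 95% interval of the limma fit, ordered by role. The interval of every gene but H2-M9 includes 0, and the widest intervals are those of Ciita and H2-Q10.

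The classical class I heavy chains H2-K1 and H2-D1 present peptides to CD8 T cells. In the array's annotation (build mm9, as for all probe positions here) the H2-K1 probe lies on chromosome 17 from 34133055 to 34133114. Its log2 signal ran from 6.17 over a median of 6.50 to 6.81 at 6 months and from 6.13 over 6.36 to 6.83 at 20 months, so both ages covered nearly the same range. The change was -0.07 ± 0.15 (SE, as for every change given with ±; adjusted p = 0.924), and it was 0.02 after quantile normalization, so no direction can be given. A second H2-K1 probe, at 34133984 to 34134043, gave a difference of 0.12 ± 0.15, with the opposite sign and an adjusted p of 0.877 in the limma fit over probes.

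The H2-D1 probe lies on chromosome 17 from 35403886 to 35403945. H2-D1 ran from 5.31 over 5.50 to 5.86 at 6 months and from 5.44 over 5.67 to 6.05 at 20 months. The older mice sat slightly higher as a group, but the ranges overlapped over most of their length. The change was 0.19 ± 0.13 (limma, adjusted p = 0.747), with a 95% interval of -0.09 to 0.46.

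B2m encodes the light chain shared by all class I molecules, and its probe lies on chromosome 2 from 121978401 to 121978460. Its signal ran from 6.25 over 6.46 to 6.64 at 6 months and from 6.29 over 6.35 to 6.72 at 20 months. The highest of the 12 values was 20 months replicate 3 and the lowest 6 months replicate 4, 1.39-fold apart. The change was -0.03 ± 0.10 (limma, adjusted p = 0.953), and it was 0.00 under median scaling and 0.05 under quantile normalization.

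Non-classical class I genes of the Q, T and M regions encode molecules with narrower roles, such as H2-T23 (Qa-1), which presents leader peptides of class I chains to NK cell receptors. Of 26 such genes 14 were tested, and 11 changes were positive and 3 negative, with a median of 0.10 and 0 called. Over all genes the median was -0.02, and 43.9% of the changes were positive. The changes of the 4 with the strongest signal were 0.09 ± 0.09 for H2-gs10 (current symbol H2-Q4), 0.16 ± 0.13 for H2-Q7, 0.14 ± 0.12 for H2-Q2 and 0.11 ± 0.13 for H2-T23. Near-identical class I genes can share signal: in 2 pairs of member probes of different genes, H2-T3-like with H2-T18 and H2-Q2 with H2-Q10, at least 40 probe bases were identical (53 of 56 and 45 of 50 aligned bases). Binding of these probes to transcripts of other class I genes was not tested.

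H2-M9 had the smallest unadjusted p of all members. Its probe, on chromosome 17 from 36777385 to 36777444, gave a signal close to background, and stood above it on 6 arrays at 6 months and on 5 at 20 months. The values ran from -3.29 over -2.91 to -2.63 at 6 months and from -4.15 over -3.29 to -3.21 at 20 months, with 20 months replicate 6 far below the rest. The ages overlapped in a narrow band. The change was -0.49 ± 0.17 (limma, adjusted p = 0.431), and it was -0.17 with normexp background correction. A second H2-M9 probe stood above background on 4 arrays at 6 months and 1 at 20 months and was not tested.

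H2-Q10 encodes a soluble class I molecule secreted by the liver. Its brighter probe lies on chromosome 17 from 35611449 to 35611508. The signal ran from 1.02 over 2.28 to 3.20 at 6 months and from 2.06 over 2.77 to 3.68 at 20 months. It was 6.34-fold higher in the highest mouse than in the lowest, and the ages overlapped widely. The change was 0.54 ± 0.37 (limma, adjusted p = 0.754), and 0.30 ± 0.19 at the second probe.

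The genes that supply class I with peptides showed no change that passed the test. Psmb8, Psmb9 and Psmb10 encode the catalytic subunits of the immunoproteasome, and their changes were 0.05 ± 0.14, 0.02 ± 0.18 and -0.14 ± 0.10. The transporter subunits Tap1 and Tap2 gave a difference of 0.06 ± 0.18 and -0.04 ± 0.09, and Tapbp, which encodes tapasin, by -0.07 ± 0.07. Their adjusted p-values lay between 0.761 and 0.985 (limma). Over the 6 genes 3 changes were positive and 3 negative, with a median of -0.01.

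Single mice separated these genes more than age did. Psmb8 averaged 2.30 ± 0.27 at 6 months and 2.35 ± 0.23 at 20 months (SD, n = 6 each), and reached 2.69 and 2.61 in the highest mouse of each age. Tap1 ran from -1.83 over -1.45 to -1.23 at 6 months and from -1.87 over -1.53 to -0.76 at 20 months, where replicates 1 and 2 stood above every mouse of 6 months. Tapbp varied least, between 3.88 and 4.15 at 6 months and between 3.84 and 4.11 at 20 months.

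Nlrc5, the activator of class I transcription, ran from -1.47 over -0.84 to -0.14 at 6 months and from -1.40 over -0.79 to -0.39 at 20 months. The values of the old mice lay inside the range of the younger ones. The change was 0.02 ± 0.23 (limma, adjusted p = 0.991; 95% interval -0.47 to 0.51). A second Nlrc5 probe stood above background on 2 arrays at each age and was not tested.

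The chains H2-Aa, H2-Ab1 and H2-Eb1 stood above background on every array. The I-A molecule consists of the products of H2-Aa and H2-Ab1, whose probes lie on chromosome 17 from 34421285 to 34421344 and from 34406296 to 34406355. H2-Aa ran from 1.05 over 1.91 to 2.36 at 6 months and from 1.48 over 1.94 to 2.48 at 20 months. H2-Ab1 ran from 4.01 over 4.86 to 5.39 at 6 months and from 4.54 over 4.85 to 5.33 at 20 months. For both genes the 6-month mice spanned the wider range, and the 20-month range lay almost inside theirs. The changes were 0.09 ± 0.23 and 0.07 ± 0.24 (limma, adjusted p = 0.942 and 0.958), with 95% intervals of -0.41 to 0.59 and -0.44 to 0.58. The second H2-Ab1 probe shares 50 of 51 aligned bases with the first and differed between ages by -0.01 ± 0.21.

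The E molecule is incomplete in this strain. C57BL/6 mice carry the H2b haplotype, which has a defective E alpha gene, and the probe for H2-Ea-ps stood above background on 0 of 12 arrays. The E beta chain gene H2-Eb1 (chromosome 17, 34453075 to 34453134) was detected on every array, and ran from 4.25 over 5.12 to 5.56 at 6 months and from 4.70 over 5.03 to 5.24 at 20 months. The old mice lay within the range of the younger ones. Its change was -0.05 ± 0.23 (limma, adjusted p = 0.969). H2-Eb2 stood above background on no array.

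Cd74 ran from 3.31 over 4.15 to 4.68 at 6 months and from 3.89 over 4.10 to 4.57 at 20 months. Again the 6-month mice spanned the older ones. The change was 0.10 ± 0.21 (limma, adjusted p = 0.922; 95% interval -0.35 to 0.56).

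The DM genes had the smallest p-values on the class II side. H2-DMb1 (chromosome 17, 34297109 to 34297168) ran from 1.62 over 1.99 to 2.29 at 6 months and from 2.05 over 2.21 to 2.44 at 20 months. The 20-month values filled the upper part of the 6-month range and passed it. The change was 0.27 ± 0.13 (limma, adjusted p = 0.631), with a 95% interval from -0.00195 to 0.54. H2-DMa, its partner chain, ran from -0.88 over -0.50 to 0.02 and from -0.51 over -0.22 to 0.11 and gave a difference of 0.27 ± 0.16 (adjusted p = 0.712, limma). The second DM beta gene, H2-DMb2, stood above background on no array.

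The DO genes, which in the periphery are characteristic of B cells, were at the edge of detection. H2-Oa stood above background on 2 arrays at 6 months and on 0 at 20 months and was not tested. For H2-Ob 1 probe stood above background on 6 and 4 arrays and gave a difference of -0.03 ± 0.22 (adjusted p = 0.985, limma), and the other did so on 0 and 1. The B cell markers Pax5 and Fcrla stood above background on no array and Cd79a on 1.

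Ciita, on chromosome 16 from 10526568 to 10526627, ran from -5.52 over -3.06 to -1.94 at 6 months and from -3.87 over -2.68 to -1.09 at 20 months. It stood above background on 5 of 6 arrays at each age. The ages overlapped widely, and a value that is not above background is only a bound. The change was 0.64 ± 0.56 (limma, adjusted p = 0.782; 95% interval -0.56 to 1.85), and 0.23 with normexp background correction.

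As a class, the 8 class II genes had 6 positive and 2 negative changes with a median of 0.09, and the 24 class I genes 16 and 8 with a median of 0.06. These splits moved with the scaling and with single mice. Of the 34 members 22 were positive, against 26 under median scaling, where 54.1% of all genes were positive. Leaving out 6 months replicate 5 or 20 months replicate 1 gave 16 positive members each, and leaving out 6 months replicate 5 turned the class II median to -0.03.

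The class medians differed between slides. Each of the 3 slides held 2 arrays of each age. The class II median of change was 0.35 on slide 1, 0.32 on slide 2 and -0.29 on slide 3, and the class I median was 0.21, 0.08 and -0.10. Of the 34 members, 28 were positive on slide 1 and 9 on slide 3. Every array of the 20-month mice sat in column 3 of its slide, and the 6-month arrays sat in columns 1 and 4, so column 3 and age cannot be told apart.

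Class I and class II were compared directly within each mouse, as the difference of a class II and a class I gene on the same array, by an exact two-sided permutation test over the 924 splits of 12 arrays (smallest p possible 0.00216). Between the ages, Cd74 minus B2m shifted by 0.13 (95% interval -0.26 to 0.54), H2-Aa minus H2-K1 by 0.16 (-0.22 to 0.54), H2-Ab1 minus H2-D1 by -0.12 (-0.48 to 0.26) and Ciita minus Nlrc5 by 0.63 (-0.88 to 2.18). The exact permutation p was between 0.379 and 0.548, and 0.548 for each of the 4 after adjustment. The signs were 3 positive and 1 negative. A class II shift relative to class I of more than 0.54 lay outside the interval for the first 3 pairs, and the last pair left a wide range possible. With normexp background correction the last pair shifted by 0.25.

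Pooled over the ages, mice spread more widely in class II genes than in class I genes, as a description with no test. The SD within ages had a median of 0.43 over the 8 class II genes (lowest 0.23, for H2-DMb1), 0.23 over the 24 class I genes and 0.20 over all genes. H2-Aa, H2-Ab1, H2-Eb1 and Cd74 lay at percentiles 91.2, 91.9, 90.6 and 88.0 of the SD among all genes, and Ciita at 99.6. On the class I side Nlrc5 was at 90.7 and H2-Q10 at 98.4, whereas Tapbp was at 5.9 and B2m at 36.6. For the class II chains and Cd74 the spread was wider at 6 months. The SD at 6 and 20 months was 0.56 and 0.24 for H2-Eb1 and 0.56 and 0.32 for H2-Ab1. It was 0.49 and 0.39 for H2-Aa and 0.49 and 0.29 for Cd74, beside 0.32 and 0.25 for H2-K1. A wider spread at 6 months was not particular to class II, with 0.22 and 0.10 for Psmb10 and 0.39 and 0.12 for the smooth muscle marker Myh11. The order was the reverse for H2-Ob (0.21 and 0.57) and Tap1 (0.23 and 0.42). The share over all genes was not counted. The difference between the ages in spread was not tested, and the part of the dim signal of Ciita in its SD was not tested.

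**Figure D3:**
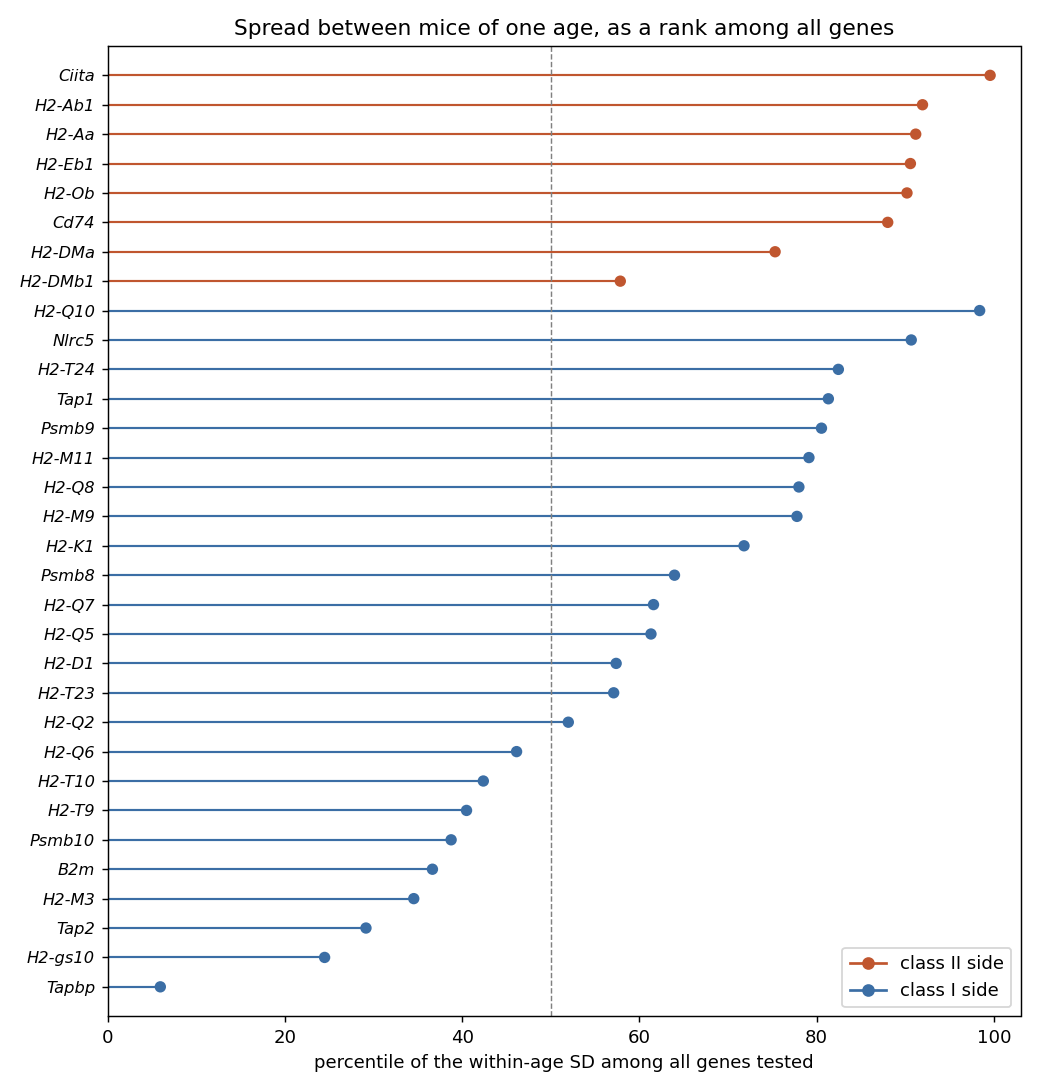
Percentile of the SD within ages (n = 6 per age) among the 16841 genes tested, for the 32 class I and class II genes, with the median gene at the dashed line. All 8 class II genes lie above the 50th percentile, and class I genes run from Tapbp at 5.9 to H2-Q10 at 98.4.

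The same mice were high or low for many members at once. In 6 months replicate 5 the signal was the lowest of all mice for 6 of the 8 class II genes and for 6 of the 24 class I genes. In 6 months replicate 3, by contrast, 7 of 8 class II genes and 23 of 24 class I genes lay above their 12-array mean. In 20 months replicate 2 all 8 class II genes did so, but 17 of 24 class I genes. In 20 months replicate 6, 1 of 8 and 1 of 24 did so. High and low mice occurred at both ages.

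Markers of other cells moved with some of these mice. The mean deviation of the 10 macrophage markers from their 12-array means ran from -0.49 to 0.19 at 6 months and from 0.01 to 0.39 at 20 months, with 10 of 10 changes positive, a median of 0.32 and 0 called (limma). At an unadjusted p under 0.05 there were 6 of the 10, against 7.99% of all genes. For class II the same mean ran from -0.84 to 0.39 and from -0.20 to 0.40. Of 8 dendritic cell markers 5 were measured, with 4 positive changes, 1 negative and 0 called. The largest change was that of Cd209a, at 0.78 ± 0.18 (limma, adjusted p = 0.121). The mean of the 5 was lowest in 6 months replicate 5 at -0.49, the mouse lowest in class II. The macrophage mean stood at -0.14 in that mouse and was lowest in 6 months replicate 4. Of 7 B cell markers 3 were measured, with 3 positive changes and 0 called. Their mean stood at -0.49 in 6 months replicate 5. It was highest in 20 months replicate 2 (0.85) and lowest in 20 months replicate 6 (-0.56). The class II means of these 2 mice were 0.40 and -0.20. Among the dendritic markers not measured, Flt3 and Clec9a stood above background on at most 1 array and Xcr1 on none. The 6 adipocyte markers were highest in 20 months replicate 1 (0.54), 6 months replicate 6 (0.46) and 6 months replicate 3 (0.39). The class I mean was also highest in these mice, at 0.33, 0.25 and 0.21. Adipocyte transcripts were present after the dissection. At 6 months the mean log2 signal was 9.53 for Fabp4, 7.92 for Ucp1 and 7.17 for Adipoq, above the 6.46 of B2m. Cidec, Plin1 and Lep were lower, at 6.39, 5.86 and -1.89. Signals of different genes also depend on the probe, so they do not rank transcripts by amount. The 2 probes of H2-K1 averaged 6.49 and 5.20 at 6 months. The part of these cells in the MHC levels was not tested.

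**Figure D4:**
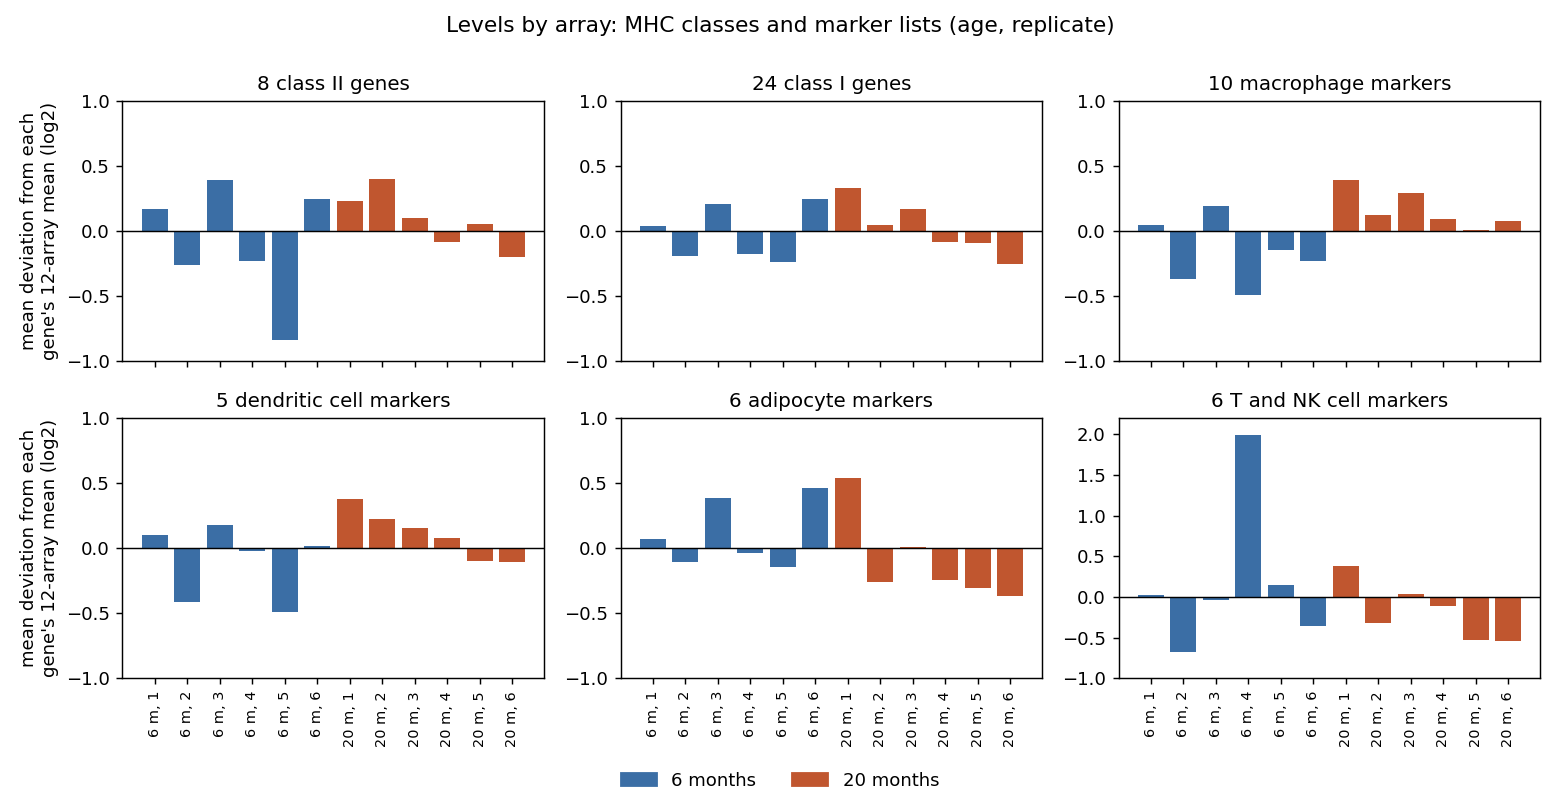
Mean deviation from each gene's 12-array mean (log2) on each array, for the class I and class II genes and 4 lists of cell type markers, with bars for single mice coloured by age. Class II is lowest in 6 months replicate 5 (-0.84), and markers of T and NK cells stand out in 6 months replicate 4 (1.99; the vertical axis of that panel differs).

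Markers of further cells and tissues were unequal as well. Markers of T and NK cells stood at 1.99 in 6 months replicate 4, where the class II mean was -0.23. Of 10 such markers 6 were measured, with 1 positive change, 5 negative and 0 called. The heart muscle markers stood at 2.07 in 6 months replicate 1 and were higher still in 20 months replicate 1, where the class II means were 0.17 and 0.23. The markers of the vessel wall itself, 7 of 7 for smooth muscle and 7 of 7 for endothelium, were measured. The 5 mesothelial markers had a median change of -1.90 with 5 of 5 negative and 0 called. Without the 3 arrays named here 15 of 34 members were positive and 0 were called.

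Pairs of members were followed across the 12 mice for 5 pairs chosen by their shared function. All members of an array share its scaling, and p-values come from permutation and are adjusted over the 5 pairs. The r of other gene pairs was not computed for comparison, and regulation of one gene by another was not tested. The I-A partner chains H2-Aa and H2-Ab1 varied together, with Pearson r = 0.946 (adjusted permutation p = 0.0002) and Spearman rho = 0.853 (adjusted p = 0.0018). Without the 2 mice farthest from the median r was 0.905, within the ages it was 0.982 and 0.900, and centred on slide 0.944.

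The regulator Nlrc5 varied with B2m, one of its target genes, with r = 0.842 (adjusted permutation p = 0.0011) and rho = 0.888 (0.0014). Without the outlying 2 mice r was 0.784, at 6 months 0.907 and at 20 months 0.777. Centred on slide it was 0.688, and centred on age and slide 0.681. The heavy chain H2-K1 and the immunoproteasome subunit Psmb8 gave r = 0.812 (adjusted permutation p = 0.00477) and rho = 0.790 (0.00627), and 0.711 without 2 mice, 0.850 and 0.828 within the ages and 0.713 centred on slide. Both relations kept their sign within each age.

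The invariant chain Cd74 of class II and the class I light chain B2m gave r = 0.630 (adjusted permutation p = 0.0291) and rho = 0.734 (0.0104), with 0.618 without 2 mice, 0.822 at 6 months, 0.387 at 20 months and 0.526 centred on slide. Ciita and its target Cd74 gave no relation that passed the test, with r = 0.433 (adjusted permutation p = 0.169) and rho = 0.203 (0.531). That r was 0.123 without 2 mice, 0.863 at 6 months and -0.495 at 20 months. Of the 2 mice left out, 6 months replicate 5 was the lowest of all in both genes. Its Ciita value of -5.52 lay near the -5.60 of H2-Ea-ps, a probe above background on 0 arrays. A value at that level is only a bound, and the r at 6 months includes it. The other mouse left out, 20 months replicate 5, was the highest in Ciita (-1.09), but its Cd74 signal of 3.95 lay under the 20-month median of 4.10. A slide held 4 arrays, too few for a value within slides.

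**Figure D5:**
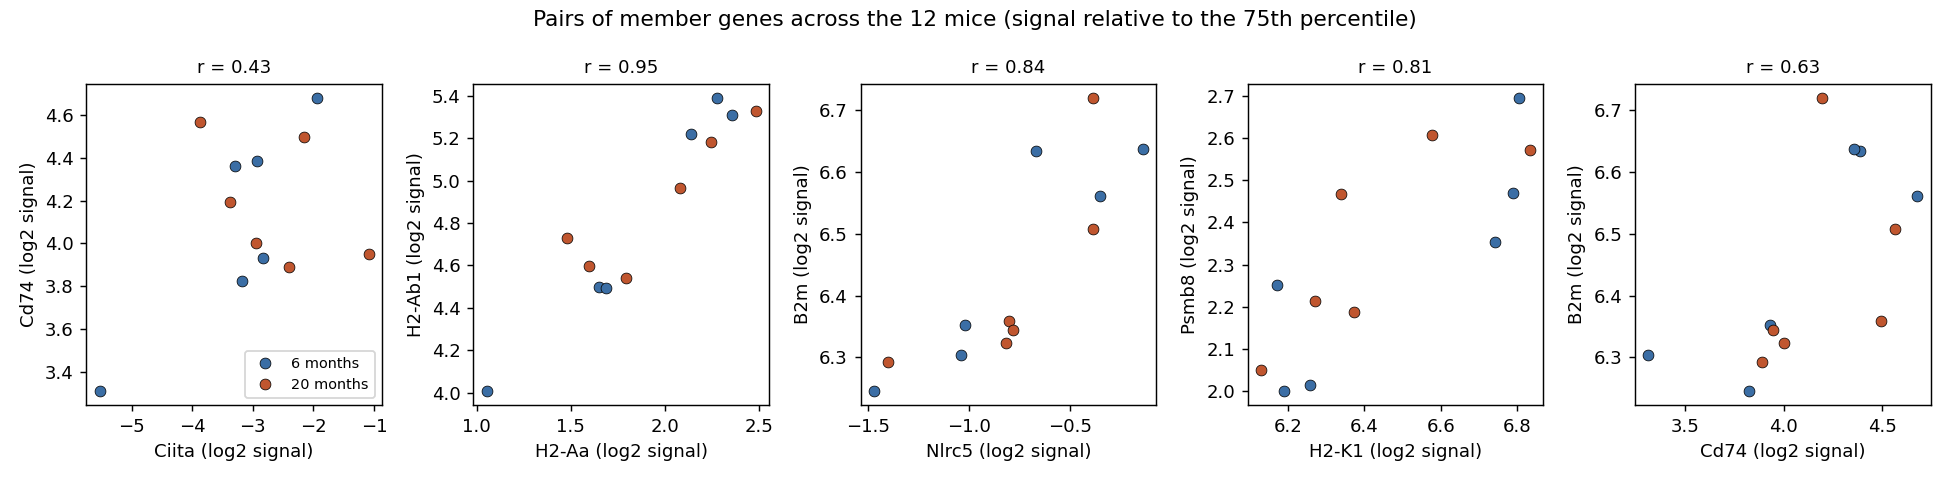
Signals of 5 pairs of member genes in the 12 mice (log2 signal relative to the array's 75th percentile), with 1 point per mouse coloured by age and Pearson r above each panel. H2-Aa and H2-Ab1 lie close to a line (r = 0.95), and Ciita and Cd74 do not (r = 0.43).

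Genes around the pathway, outside the H2 names, gave 0 calls as well. Of 50 genes in 5 lists 46 were tested, with 18 positive and 28 negative changes, 4 at an unadjusted p under 0.05 and a median of -0.04. Over all genes 43.9% were positive, 7.99% had an unadjusted p under 0.05 and 0.315% were called, so these lists lay near the background. The other class I pathway genes, which include chaperones and standard proteasome subunits, had 5 positive and 7 negative of 12. The other class II pathway genes, chiefly endosomal proteases, had 4 and 4 of 8, and the transcription factors and interferon gamma signalling genes 4 and 11 of 15. MHC-like molecules had 2 and 4 of 6 and costimulation 3 and 2 of 5.

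By smallest p, the positive changes were those of Icosl, a ligand of the T cell receptor ICOS (0.25 ± 0.09, limma adjusted p = 0.442), Ifi30, the lysosomal thiol reductase of class II processing (0.22 ± 0.09, adjusted p = 0.499), and Nfya, a subunit of the Y box factor NF-Y (0.21 ± 0.11, adjusted p = 0.679). The negative ones were Irf2, an interferon regulatory factor (-0.25 ± 0.10, 0.563), Rfxank, a subunit of the X box factor (-0.26 ± 0.11, 0.599), and Jak2, a kinase of the interferon gamma receptor (-0.14 ± 0.08, 0.689). None passed the test. Rfx5, another subunit of the X box factor, stood above background on 0 arrays with either of its 2 probes.

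The 12 class I genes that did not enter were H2-M1, H2-M2, H2-M5, H2-M10.1, H2-M10.2, H2-M10.3, H2-M10.4, H2-M10.6, H2-Q1, H2-T18, H2-T3 and H2-T3-like. Of these H2-M2 stood above background on 3 arrays at 6 months and 1 at 20 months and H2-T3 on 0 and 1, and the others on none. M10 molecules are known from sensory neurons of the vomeronasal organ, and T3 and T18 molecules belong to the TL antigens of thymus and gut. On the class II side H2-Ea-ps, H2-Eb2, H2-DMb2 and H2-Oa did not enter. A probe not above background gives only a bound on the level of its gene.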

How the data were processed

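Values came from 12 Agilent 1-colour arrays. Per the file headers, the authors scanned them with Agilent Feature Extraction 10.7.1.1, and the deposited intensity is the processed green signal, background-subtracted and detrended within the array. A deposited table of log2 values, centred on each probe's median, has unstated scaling; its columns have medians between -0.018 and 0.013 and follow the scanner values (r 0.921 to 0.991 per array over probes). It was used as an alternative.

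The intensity was taken to log2, outlier spots were dropped, spots of a probe averaged and each array's 75th percentile subtracted. Probes well above background on at least 6 of 12 arrays entered (27583 probes), and the brightest probe stood for its gene. Ages were compared with limma 3.58.1 in R 4.3.3, in a model of age alone over all 12 arrays with Benjamini-Hochberg adjustment. The procedure was tested on simulated data. The number of arrays limits the precision, and p-values measure the spread between mice.

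Named genes were the 10 fixed members, the classical chains, DM and DO genes, the 4 non-classical genes with the strongest signal, the 5 members with the smallest p and 3 pathway genes in each direction. Other members and markers were named after their values were seen. Members, lists and tests were chosen with earlier results of these data known. Alternatives covered background correction (normexp, offset 50), quantile and median scaling, the log2 table, filters on dim probes, slides, the replicate number as a block, the mean over probes and each array left out.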

Additional observations from a re-analysis of the deposited data

Results flagged for a closer look

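A single value stood apart from its group of 6. H2-M9 at 20 months was -4.15 in replicate 6 (log2 signal relative to the 75th percentile), and the other 5 mice lay between -3.51 and -3.21. The gap to the nearest mouse was 0.679 of the whole range, above Dixon's 95% critical value for 6 samples. It was 1 of 64 groups of 6 examined in this way, and chance alone flags about 1 in 20 groups.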

How the results depend on the processing

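No member gene or probe was called under any of the 26 alternatives, where the smallest adjusted p over members was 0.266 for genes and 0.31 for probes (limma). The count over all genes was 53 and moved to 33 under median scaling, 23 with no filter on dim probes, 1, 1 and 0 on slides 1, 2 and 3 alone, 30 when 6 months replicates 1 and 4 and 20 months replicate 1 were left out together, and 21 to 59 with single arrays left out. It was 68 with the slide as a fixed block and 78 with the slide as a random block. A slide alone holds 2 arrays of each age, and the cause of the other shifts was not tested. On slide 3 alone the class II median was -0.29. Among the gene pairs, H2-Ab1 minus H2-D1 was 0.042 on slide 1 and 0.12 on slide 2, Ciita minus Nlrc5 was -0.71 on slide 1, and Cd74 minus B2m and H2-Aa minus H2-K1 were -0.20 and -0.25 on slide 3. The pairs were not run with the slide as a random block. Of 30 named genes tested, 17 changed sign under at least 1 alternative and 13 under none, and 0 passed the threshold (smallest adjusted p 0.223). For low signals such as those of Ciita, H2-M9 and H2-Ob, the background limits what can be resolved.

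With the replicate number as a block, 6 genes were called over all genes and 0 members, and no other call changed. Same-numbered mice had correlations of their deviations between -0.36 and 0.32. The labels give these mice no link beyond the number. Both arrays of replicate 2 lay on slide 1 and both of replicate 4 on slide 2, with correlations of 0.32 and 0.14. The part of the slide in these values was not tested.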
